A study of Mus musculus with 9 samples.

Results

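The integrated stress response and the unfolded protein response of the endoplasmic reticulum (ER) were followed through 9 genes, Atf4, Ddit3, Atf3, Xbp1, Trib3, Ddit4, Chac1, Asns and Hspa5. They were chosen by symbol, all 9 were found among the 16070 rows of the deposited table, and 8 reached 1 FPKM in at least 3 libraries and were tested. FPKM stands for fragments per kilobase of transcript and a fixed number of mapped fragments. The study measured RNA in mouse embryos of the strain C57BL/6, collected 4.5 days after microinjection as E4.5 embryos, the stage of the late blastocyst, after culture in vitro. It had 3 groups of 3 libraries: wild type (WT), a group labelled H3R17H, in which arginine 17 of histone H3 is replaced by histidine, and a group labelled Carm1-/-, without the methyltransferase that modifies this arginine. The labels give no dose of editing reagents, do not say whether WT embryos were injected, and describe the material both as embryo and as single cell. No label states that replicates are separate embryos, and p-values then reflect only how far these libraries spread, which may be technical.

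Carm1 went against the labels. Replicates 1 to 3 of WT had 8.86, 7.08 and 6.65 FPKM, H3R17H-labelled libraries 1.88, 0.02 and 1.22 FPKM and Carm1-labelled ones 6.44, 12.68 and 9.52 FPKM. The column names of the table cross the 2 edited titles too, so groups are named by label, as H3R17H-labelled and Carm1-labelled libraries, and no direction is assigned to a genotype. Summed FPKM of 4 Y-linked genes was 30.7 to 35.8 in WT, 36.6 and 28.1 in replicate 1 of the groups labelled H3R17H and Carm1-/-, and at most 0.01 in the other 4 libraries. Y-linked transcripts thus accompanied all WT libraries and 1 library of each edited group. The summed level of 7 trophectoderm markers (the outer, placenta-forming layer) was 5232 to 7806 FPKM in WT and 1549 to 4522 FPKM in H3R17H-labelled libraries. In Carm1-labelled ones it was 8504 FPKM in replicate 1 and 1982 and 2542 FPKM in replicates 2 and 3. Most of each sum came from Krt8 and Krt18, at 2229 and 2663 FPKM in WT replicate 1. In H3R17H-labelled libraries Gata3 also lay below WT, while Cdx2 and Eomes overlapped WT. Tfap2c was not lower there, at 37.5, 55.0 and 51.7 FPKM against 46.3, 24.1 and 25.7 FPKM in WT. Epiblast markers (6 genes) summed to 115 to 259 FPKM and primitive endoderm markers (5 of 6 genes listed) to 34.9 to 54.3 FPKM over all libraries. Gata6 gave the largest part of each endoderm sum. Single genes of both lists moved apart in H3R17H-labelled libraries. Pdgfra was at 0.01, 1.06 and 1.82 FPKM, against 6.05 to 9.44 FPKM in WT. Tdgf1 was at 5.94, 18.36 and 9.0 FPKM, against 39.9 to 56.06 FPKM. Gata6 and Esrrb lay above WT there, and the other genes of both lists overlapped WT. The oocyte gene Zp3 was at 19.98 and 4.73 FPKM in replicates 2 and 3 labelled Carm1-/- and at most 1.8 FPKM elsewhere. Only 2 of the 6 listed oocyte genes were found, and the other, Gdf9, did not follow Zp3. Gdf9 was at 0.03 and 0 FPKM in these replicates and highest in WT replicate 1, at 1.12 FPKM. In whole samples fewer cells of a type and less RNA per cell cannot be told apart. The part of sex and of lineage content in the results below was not tested beyond the values given beside them.

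The integrated stress response starts when kinases that sense amino acid shortage, unfolded ER proteins, viral RNA or heme deficiency phosphorylate the translation factor eIF2alpha. General protein synthesis then slows, while the mRNA of the transcription factor ATF4 is translated more, so Atf4 RNA need not change for the response to run. ATF4 induces CHOP (encoded by Ddit3), ATF3, TRIB3, CHAC1, ASNS and, with other inputs, DDIT4. The unfolded protein response adds the ER sensors IRE1, which splices Xbp1 mRNA, and ATF6, which raise ER chaperones such as BiP (encoded by Hspa5). A gene-level FPKM does not show translation or Xbp1 splicing.

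The promoters of the genes differ in the elements through which these factors are known to act. RefSeq windows on GRCm38.p6, from 250 bases before to 50 after the start, matched all 9 genes and were read on both strands. The ATF4 composite element, TGATGNAA, was in 4 of the 9 windows (Atf3, Trib3, Chac1 and Asns), against 3.97% of 32851 windows of the same length. The ER stress element ERSE, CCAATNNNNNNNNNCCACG, was in the Hspa5 window and in 0.12% of all windows. Neither ERSE-II (ATTGG, any base, CCACG), which 0.04% of windows held, nor the XBP1 core ACGTGG, which 8.31% held, was in any of the 9; the XBP1 core can share bases with the end of either ERSE. By the gene bounds of GENCODE M21, the Asns, Atf3 and Hspa5 matches lie within the gene, and those of Trib3 and Chac1 lie upstream of it. Matches are given 5′ to 3′ on the strand of the element, with its fixed letters in capitals, to show which genes held which element. Ddit3 and Ddit4, also known ATF4 targets, held none of the 4 elements in these windows.
Asns, from -23, chr6:7693225-7693232: TGATGaAA
Atf3, from -110, opposite strand, chr1:191183436-191183443: TGATGcAA
Chac1, from -193, opposite strand, chr2:119351049-119351056: TGATGcAA
Trib3, from 15 after the RefSeq start, opposite strand, chr2:152344039-152344046: TGATGtAA
Hspa5, from -65, chr2:34772025-34772043: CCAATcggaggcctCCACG

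Atf3 and Chac1, which were near 0 in WT and high in single edited libraries, have the element upstream of any exon annotated in the window. Their upstream stretches are shown on the strand of the gene, with the match in capitals as it reads on that strand.
Atf3, chr1:191183341-191183583, minus strand: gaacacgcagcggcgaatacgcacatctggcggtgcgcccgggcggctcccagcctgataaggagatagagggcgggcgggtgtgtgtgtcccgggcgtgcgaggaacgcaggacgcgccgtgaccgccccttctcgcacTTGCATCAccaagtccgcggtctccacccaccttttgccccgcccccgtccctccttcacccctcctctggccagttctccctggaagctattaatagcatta
Chac1, chr2:119350992-119351228, plus strand: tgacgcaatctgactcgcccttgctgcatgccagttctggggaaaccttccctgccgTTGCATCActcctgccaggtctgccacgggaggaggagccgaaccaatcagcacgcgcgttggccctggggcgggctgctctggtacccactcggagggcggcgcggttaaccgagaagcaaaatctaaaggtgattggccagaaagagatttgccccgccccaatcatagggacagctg

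In WT the 9 genes spanned a wide range of levels per length. Hspa5 had the highest WT median, 394 FPKM, followed by Asns (61.3), Xbp1 (56.0), Atf4 (32.0), Ddit3 (7.75), Trib3 (1.12), Ddit4 (1.04), Chac1 (0.07) and Atf3 (0.02). Asns overlapped Xbp1 and Atf4 across WT libraries, Trib3 overlapped Ddit4, and Chac1 overlapped Atf3; the other neighbours in this order did not overlap.

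**Figure D1:**
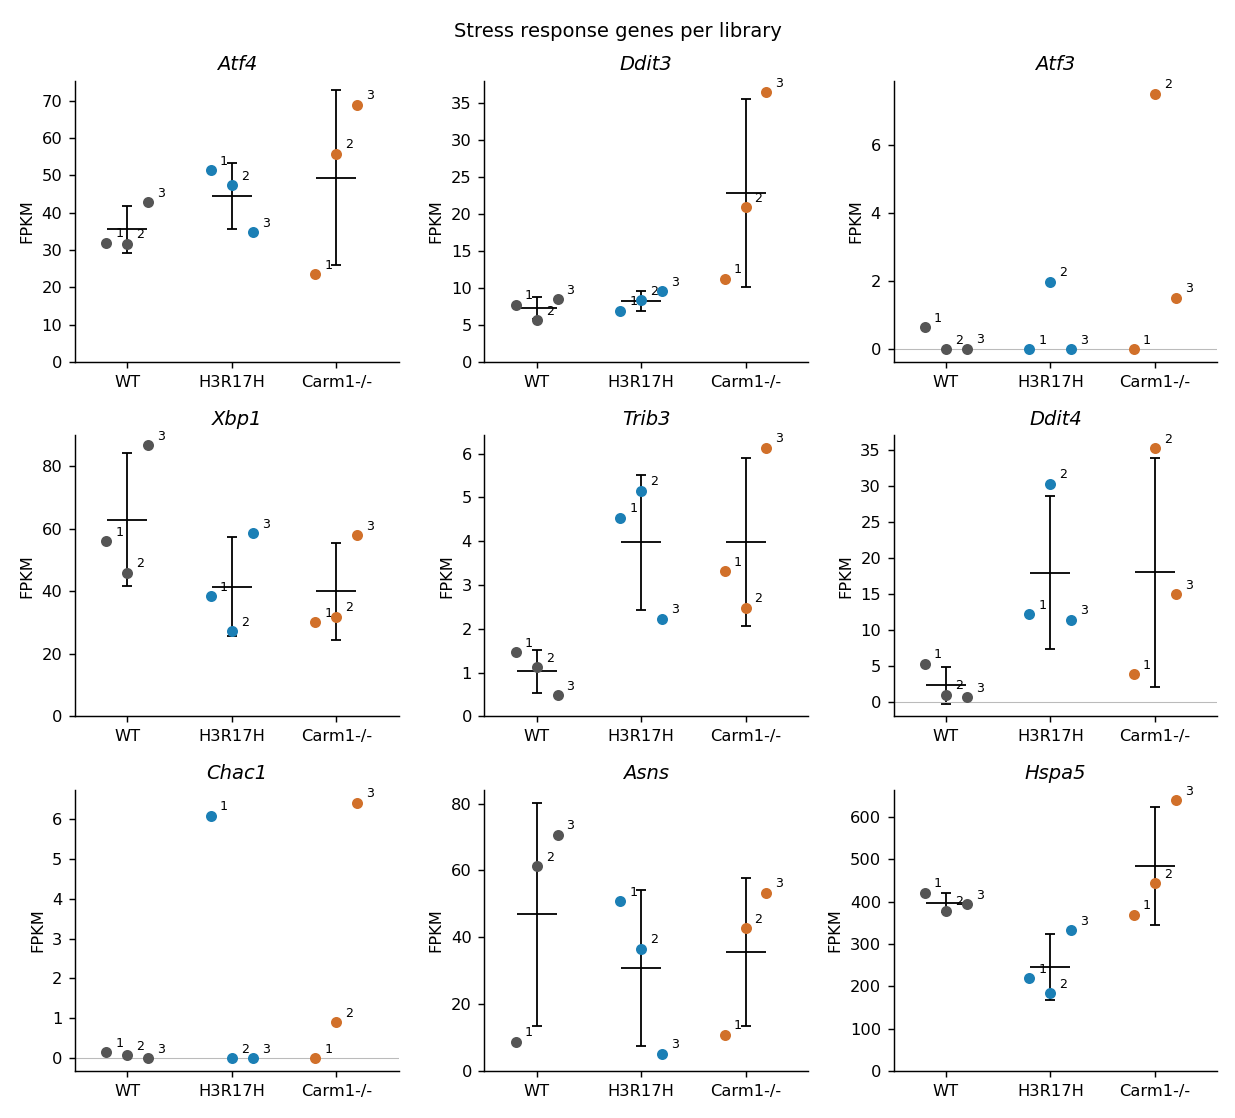
FPKM of the 9 stress response genes in each library (points, numbered by replicate) for the groups as labelled, with bars for the mean and error bars for the SD of 3 libraries; Atf3 and Chac1, listed at 0 in some libraries, have points only. Trib3 lies at 0.49 to 1.47 FPKM in WT libraries, against 2.23 to 6.13 FPKM in the 6 edited libraries, while Hspa5 is below the WT range in all 3 H3R17H-labelled libraries.

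The transcription factors head the pathway, and among them Ddit3 had libraries of 1 edited group wholly above the others. Ddit3 encodes CHOP, the factor that turns prolonged ER stress towards cell death. It stood at 7.75, 5.63 and 8.51 FPKM in WT libraries, at 6.9, 8.33 and 9.52 FPKM in replicates 1 to 3 labelled H3R17H, and at 11.2, 20.9 and 36.4 FPKM in Carm1-labelled ones. All 3 Carm1-labelled libraries thus lay above all 6 others, with replicate 1 nearest to them. The log2 difference from WT was 1.39 (SE 0.39, limma, adjusted p = 0.266) in the group labelled Carm1-/- and 0.16 (SE 0.39, adjusted p = 0.877) in that labelled H3R17H. Set directly against H3R17H, Carm1-labelled libraries were higher by 1.23 (SE 0.39, limma, adjusted p = 0.463). None of these passed the threshold of 0.05. Without replicate 1 labelled Carm1-/- the difference from WT was 1.8 and passed (limma, adjusted p = 0.0219), as did 4.63% of all tested genes. With a sex term it was 0.88 (limma, adjusted p = 0.946). The left-out library is also the one of its group with Y-linked transcripts and with trophectoderm markers at 8504 FPKM. GENCODE M21 places Ddit3 on the plus strand of chromosome 10, 127290774 to 127296288 (GRCm38), as 2 overlapping entries, and its last 68 bases overlap Mars on the other strand. Mars, a tRNA synthetase gene, was at 53.6, 39.4 and 69.3 FPKM in Carm1-labelled libraries against 56.8 to 71.6 FPKM in WT. The part of Mars reads in the Ddit3 values was not tested.

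Atf4 (chromosome 15, 80255184 to 80257541), the hub of the response, overlapped between all groups. Its level was 32.0, 31.8 and 42.9 FPKM in WT, 51.5, 47.3 and 34.7 FPKM in H3R17H-labelled libraries and 23.5, 55.8 and 69.0 FPKM in Carm1-labelled ones. Replicates 2 and 3 of the last group were the highest of all libraries and replicate 1 the lowest. The log2 differences from WT were 0.31 (SE 0.37) and 0.35 (SE 0.37), and neither passed (limma, adjusted p = 0.73 and 0.738). Atf3 (chromosome 1, 191170296 to 191218039), a stress-induced factor of the same bZIP class, was listed at 0 in 4 libraries. It was at 0.65, 0 and 0.02 FPKM in WT libraries, at 0, 1.98 and 0 FPKM in replicates 1 to 3 labelled H3R17H and at 0, 7.51 and 1.51 FPKM in Carm1-labelled ones. It entered the test only through these 3 libraries above 1 FPKM, and neither difference from WT passed (limma, adjusted p = 0.889 and 0.512). Xbp1 (chromosome 11, 5520659 to 5525893), the factor downstream of IRE1, had lower means in both edited groups than in WT. WT libraries had 56.0, 45.9 and 86.7 FPKM of it, against 38.4, 27.3 and 58.6 FPKM in H3R17H-labelled libraries and 30.2, 31.8 and 58.0 FPKM in Carm1-labelled ones. Replicate 3 of each edited group lay inside the WT range, and the differences of -0.61 and -0.65 (SE 0.36 each) did not pass (limma, adjusted p = 0.472 and 0.501).

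Among the feedback and effector genes Trib3 stood above WT in all 6 edited libraries and Ddit4 in 5 of them. Trib3 (chromosome 2, 152337422 to 152344032, minus strand) encodes a pseudokinase that restrains ATF4 and CHOP. It was at 1.47, 1.12 and 0.49 FPKM in WT libraries, at 4.54, 5.15 and 2.23 FPKM in H3R17H-labelled libraries and at 3.32, 2.48 and 6.13 FPKM in Carm1-labelled ones. The lowest edited library was replicate 3 labelled H3R17H and the highest WT library replicate 1. The log2 differences from WT were 1.27 and 1.26 (SE 0.4 each) and did not pass (limma, adjusted p = 0.247 and 0.3). The 2 edited groups differed by -0.01 (SE 0.4) from each other. With a sex term the differences from WT were 1.31 and 1.3 (limma, adjusted p = 0.688 and 0.939). As all WT libraries had Y-linked transcripts, this term rests on the edited libraries alone. Replicate 1 of each edited group, the libraries with Y-linked transcripts like WT, were at 4.54 and 3.32 FPKM. The part of sex in the Trib3 values was not tested further.

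Ddit4 (chromosome 10, 59949669 to 59951834, minus strand) encodes REDD1, an inhibitor of the growth kinase mTORC1 that stress, low oxygen and p53 also induce. It was at 5.34, 1.04 and 0.73 FPKM in WT libraries, at 12.3, 30.3 and 11.46 FPKM in replicates 1 to 3 labelled H3R17H and at 3.92, 35.3 and 14.98 FPKM in Carm1-labelled ones. H3R17H-labelled libraries were all above WT, whereas replicate 1 labelled Carm1-/- lay inside the WT range. The log2 differences were 2.62 (SE 0.73, limma, adjusted p = 0.226) and 2.33 (SE 0.73, adjusted p = 0.3). Neither passed, though in the first comparison the limma adjusted p was 0.0501 when only the groups compared were fitted. In the second the difference was 3.09 and passed without replicate 1 labelled Carm1-/- (limma, adjusted p = 0.0307), as did 4.63% of all tested genes. A sex term brought the differences to 1.66 and 1.38 (limma, adjusted p = 0.699 and 0.971). Ddit4 was at most 5.34 FPKM in the 4 libraries whose trophectoderm markers summed to 5232 FPKM or more, and at least 11.46 FPKM in the 5 whose markers summed to at most 4522 FPKM. The part of the trophectoderm in this difference was not tested.

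Chac1 (chromosome 2, 119351229 to 119354381), whose enzyme degrades glutathione, was seen in single libraries. It was at 0.15, 0.07 and 0 FPKM in WT libraries, at 6.08 FPKM in replicate 1 labelled H3R17H and 0 in replicates 2 and 3, and at 0, 0.9 and 6.41 FPKM in replicates 1 to 3 labelled Carm1-/-. With 2 libraries above 1 FPKM it did not meet the filter, and in a fit without the filter the adjusted p was 0.731 and 0.633 against WT (limma). The libraries high in Chac1 and those high in Atf3 were only partly the same. Replicate 3 labelled Carm1-/- was above 1 FPKM for both, with Atf3 at 1.51 FPKM. Replicate 2 labelled Carm1-/- led for Atf3, and replicate 1 labelled H3R17H was at 0 for it.

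Asns (chromosome 6, 7675169 to 7693254, minus strand) encodes asparagine synthetase, a standard readout of amino acid shortage, and it varied within every group. It was at 8.71, 61.3 and 70.7 FPKM in WT libraries, at 50.7, 36.6 and 5.11 FPKM in H3R17H-labelled libraries and at 10.9, 42.6 and 53.3 FPKM in Carm1-labelled ones. Each group thus held 1 low library and 2 high ones. The ratio of the highest to the lowest library was 8.12 in WT, 9.93 in the group labelled H3R17H and 4.91 in that labelled Carm1-/-. Among 3219 genes with a mean of at least 20 FPKM, ratios as large were found in 0.47%, 0.87% and 4.82% of genes. Over the 12 tested enzymes of amino acid and one-carbon synthesis the median in the 3 low libraries was 0.21, -0.06 and 0.01 from the WT mean (log2). Single enzymes differed from this median. Psat1 had its lowest value of all 9 libraries, 48.8 FPKM, in replicate 1 labelled Carm1-/-, and its highest WT value, 129 FPKM, in WT replicate 1. The log2 differences of Asns from WT were -0.62 and -0.21 (SE 0.95 each; limma, adjusted p = 0.794 and 0.95). They changed sign when single libraries were left out, to 0.33 without replicate 3 labelled H3R17H and to 0.47 without replicate 1 labelled Carm1-/-.

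Hspa5 (chromosome 2, 34771970 to 34777547), the main chaperone of the ER lumen, had lower values in H3R17H-labelled libraries than in WT, while Carm1-labelled ones overlapped WT. It was at 421, 378 and 394 FPKM in WT libraries, at 218, 184 and 333 FPKM in replicates 1 to 3 labelled H3R17H and at 369, 443 and 640 FPKM in Carm1-labelled ones. H3R17H-labelled libraries lay below all others, replicate 3 being nearest. Hspa5 averaged 398 ± 21.4 FPKM in WT, 245 ± 78.0 FPKM in the group labelled H3R17H and 484 ± 140 FPKM in that labelled Carm1-/- (SD, n = 3). The log2 difference from WT was -0.74 (SE 0.26, limma, adjusted p = 0.278) for H3R17H and 0.25 (SE 0.26, adjusted p = 0.739) for Carm1-/-. Between the edited groups it was 0.99 (SE 0.26, adjusted p = 0.411), and none of the 3 passed. With a sex term the difference for H3R17H was -0.98 (limma, adjusted p = 0.688), and leaving out single libraries gave -0.98 to -0.56. The trophectoderm marker sum, mostly Krt8 and Krt18, was also low in this group, with replicate 3 the highest at 4522 FPKM. In replicates 2 and 3 labelled Carm1-/-, at 1982 and 2542 FPKM for that sum, Hspa5 was at 443 and 640 FPKM.

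The direction of Hspa5 was shared by much of the ER folding machinery on a list of its known genes. Of 15 tested ER chaperones and foldases 11 had lower values in H3R17H-labelled libraries, by a median of -0.41 over the list, against -0.032 over all 11850 tested genes. By library the list medians from the WT mean were -0.31, -0.55 and -0.11 in replicates 1 to 3, against -0.03, -0.11 and 0.1 in WT. Replicate 3 was thus level with WT replicate 2. In 7 of the 15 the libraries lay wholly below WT and in 2 wholly above, where 15.6% and 13.3% of all tested genes did so. Of 10 genes of ER-associated degradation, which removes misfolded proteins, 8 had lower values, with a median of -0.38, and 3 lay wholly below WT. None passed over all genes. Hsp90b1, the ER form of HSP90, was at 203, 191 and 229 FPKM in WT libraries, against 107, 77.2 and 138 FPKM in H3R17H-labelled libraries, a log2 difference of -0.98 (SE 0.25, limma, adjusted p = 0.224). Dnajc3, a co-chaperone that also inhibits the eIF2alpha kinase PERK, was at 10.7, 11.8 and 21.9 against 3.37, 2.29 and 4.9 FPKM. Its difference of -1.78 (SE 0.38, limma, adjusted p = 0.176) passed when only the groups compared were fitted (adjusted p = 0.0425) and with array quality weights (adjusted p = 0.0369). The first of these fits called 2.03% of all 11850 tested genes and the second 192 of them. Edem2, which marks glycoproteins for degradation, was at 32.7, 39.4 and 27.4 FPKM in WT libraries, against 17.0, 15.8 and 20.7 FPKM (log2 difference -0.85, SE 0.24, limma, adjusted p = 0.226). Dnajb9, another co-chaperone of BiP, had higher values, 38.1, 32.6 and 12.7 FPKM against 10.1, 10.1 and 7.63 FPKM in WT (log2 difference 1.36, SE 0.69, adjusted p = 0.398).

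**Figure D2:**
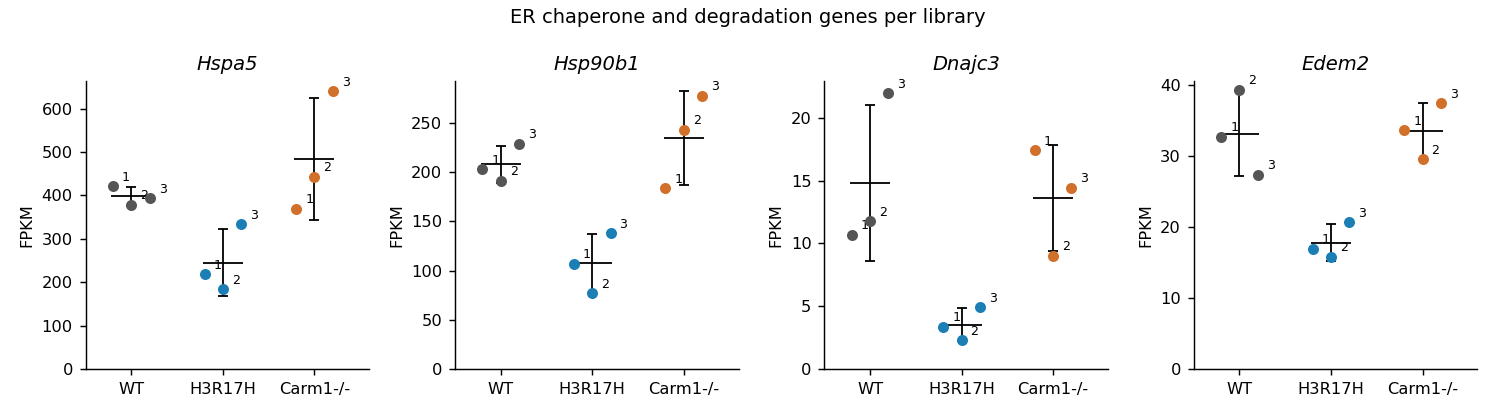
FPKM of Hspa5, Hsp90b1, Dnajc3 and Edem2 per library (points, numbered by replicate), with bars for the mean and error bars for the SD of 3 libraries per group as labelled. In each panel the 3 H3R17H-labelled libraries lie below the 6 others, for Dnajc3 at 2.29 to 4.9 FPKM against 9.03 to 21.9 FPKM.

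ERSE was frequent in the promoters of these folding genes, and not every gene that held it lay below WT. Of the 16 listed ER chaperones and foldases 12 had a window, and 6 of these held ERSE (Calr, Canx, Creld2, Dnajc3, Hsp90b1 and Pdia6). Of the 10 listed degradation genes 9 had a window, and 2 of these held ERSE (Derl3 and Syvn1). The matches of the 6 folding genes, with the fixed letters in capitals, are shown to compare them with that of Hspa5.
Hsp90b1, from -212, chr10:86705638-86705656: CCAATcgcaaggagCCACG
Hsp90b1, from -107, opposite strand, chr10:86705533-86705551: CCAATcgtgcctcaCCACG
Dnajc3, from -105, chr14:118937827-118937845: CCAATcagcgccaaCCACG
Pdia6, from -98, chr12:17266491-17266509: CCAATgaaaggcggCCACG
Creld2, from -126, opposite strand, chr15:88819520-88819538: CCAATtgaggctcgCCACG
Canx, from -145, chr11:50325800-50325818: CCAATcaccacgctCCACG
Calr, from -162, opposite strand, chr8:84847075-84847093: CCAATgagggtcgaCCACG
The disulfide isomerase gene Pdia6 was at 153, 182 and 190 FPKM in WT libraries, against 78.4, 62.3 and 136 FPKM in H3R17H-labelled libraries, and Creld2 at 163, 164 and 221 against 156, 66.6 and 123 FPKM. Canx, encoding the lectin chaperone calnexin, was at 254, 263 and 376 against 204, 204 and 212 FPKM. H3R17H-labelled libraries lay below WT for these 3 genes. Calr, encoding calreticulin, overlapped WT, at 309, 276 and 224 against 214, 176 and 284 FPKM. None of the 4 passed, with log2 differences of -0.99, -0.73, -0.5 and -0.28 (limma, adjusted p = 0.226, 0.36, 0.311 and 0.579). The degradation genes Derl3 and Syvn1, which also held ERSE, overlapped WT and were not lower. Their log2 differences were 0.12 and 0.26 (limma, adjusted p = 0.964 and 0.801).

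In Carm1-labelled libraries the ER genes were not lower as a group. Of the 15 tested chaperones and foldases 11 had higher values than WT, by a list median of 0.16 against -0.042 over all genes. By library their medians from the WT mean were -0.05, 0.02 and 0.42, so only replicate 3 stood clearly above WT. Of the 10 degradation genes 5 were higher and 5 lower. Calr was at 338, 341 and 374 FPKM, above all WT libraries, and Canx at 201, 234 and 229 FPKM, below them all. Hyou1, an ER nucleotide exchange factor, was at 4.94, 5.35 and 2.02 FPKM against 1.82, 0.79 and 1.0 FPKM (log2 difference 1.17, SE 0.42, limma, adjusted p = 0.355). Herpud1, an ER degradation gene with both an ATF4 element and ERSE-II in its window, was at 10.5, 3.96 and 21.3 FPKM in WT libraries, at 5.31, 0 and 1.97 FPKM in H3R17H-labelled libraries and at 1.57, 23.7 and 67.6 FPKM in replicates 1 to 3 labelled Carm1-/-. Replicates 2 and 3 were thus above and replicate 1 below the WT range. Without replicate 1 the chaperone gene Dnajb9 passed, with a difference of 2.18 (limma, adjusted p = 0.0246), as did Manf, with 1.1 (adjusted p = 0.048). In that fit 5 of the 86 genes of the wider list passed, the others being Nupr1, Psat1 and, lower, Ppp1cb, and so did 4.63% of all tested genes.

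Set directly against each other, the 2 edited groups differed in the same direction in most of these ER genes. Carm1-labelled libraries had higher values than those labelled H3R17H in 13 of 15 chaperones and foldases, by a median of 0.52, and in 10 of 10 degradation genes, by a median of 0.38; the median over all genes was -0.011. In 6 of the 15 chaperones the libraries lay wholly above, and in 0 wholly below, against 5.13% and 6.07% of all tested genes. Hsp90b1 differed by 1.14 (SE 0.25, limma, adjusted p = 0.313), Dnajc3 by 1.69 (SE 0.38, adjusted p = 0.325) and Edem2 by 0.88 (SE 0.24, adjusted p = 0.414). None passed.

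**Figure D3:**
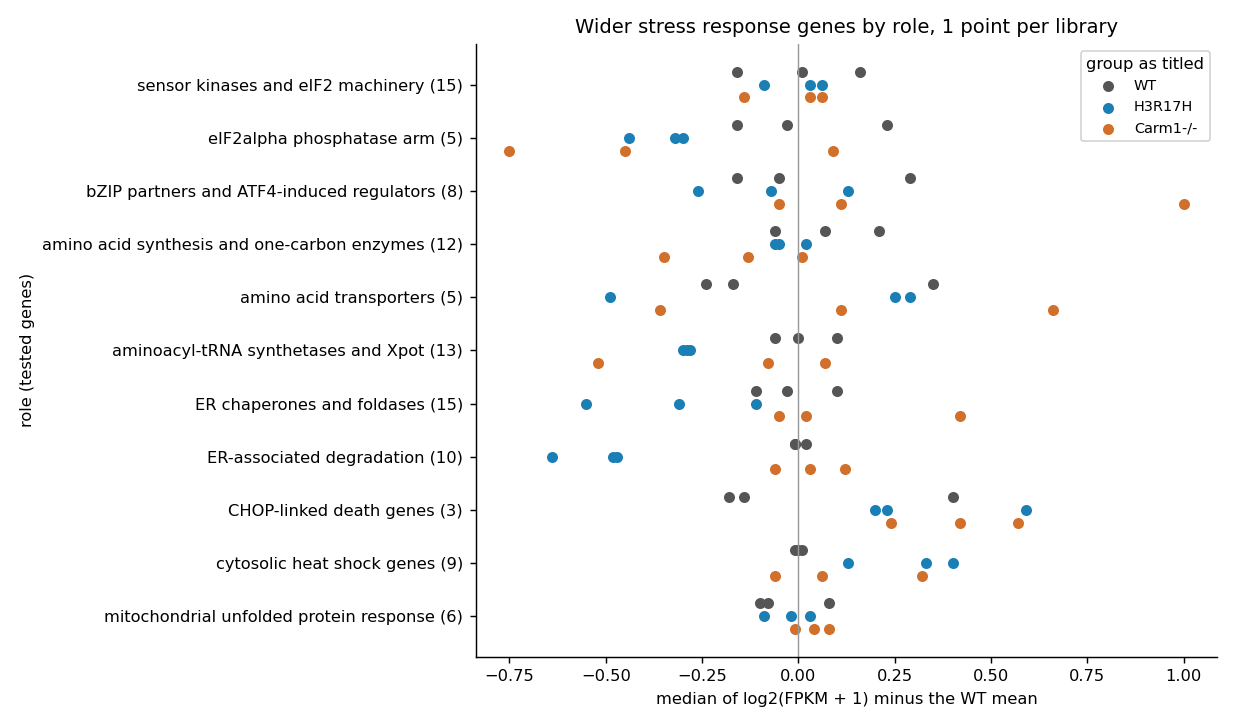
Median of log2(FPKM + 1) minus the WT mean over the tested genes of each role (number in brackets), 1 point per library, coloured by group as labelled. ER-associated degradation genes lie at -0.64 to -0.47 in H3R17H-labelled libraries and between -0.06 and 0.12 in all other libraries. For ER chaperones and foldases, replicate 3 labelled H3R17H and WT replicate 2 both lie at -0.11. The point at 1.0 for bZIP partners is replicate 2 labelled Carm1-/-.

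The wider list of both pathways, without the 9 genes, held 100 symbols, of which 95 were in the table and 86 were tested. None passed in any of the 3 comparisons by limma; before adjustment, 1 gene was higher and 9 lower at a p under 0.05 in H3R17H vs WT, where 6.41% and 7.75% of all genes were. There were 4 and 4 in Carm1-/- vs WT, shares below those of all genes (5.25% and 6.19%), and 11 and 0 in Carm1-/- vs H3R17H (4.09% and 4.12%). Of the 86 genes 25.6% lay wholly below WT in H3R17H-labelled libraries and 5.8% wholly above, against 15.6% and 13.3% of all tested genes. For Carm1-/- vs WT the shares were 9.3% below and 12.8% above, against 9.71% and 6.91%.

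Outside the ER, the lists of the integrated stress response held genes with higher and with lower values. Of 5 tested genes of the eIF2alpha phosphatase 4 had lower values in each edited group, by list medians of -0.38 and -0.37. Ppp1cb, a catalytic subunit of the phosphatase, had the smallest p of this list. It was at 22.01, 32.4 and 45.4 FPKM in WT libraries, at 16.3, 11.84 and 20.4 FPKM in H3R17H-labelled and at 18.8, 11.3 and 10.97 FPKM in Carm1-labelled ones. Both edited groups lay below WT, and the differences of -0.97 and -1.2 (SE 0.34 each) did not pass (limma, adjusted p = 0.278 and 0.266). Without replicate 1 labelled Carm1-/- the second was -1.44 and passed (adjusted p = 0.048). The exception, Ppp1r15a, the stress-induced subunit that reverses the response, was at 9.22, 7.3 and 12.3 FPKM in WT, 28.1, 11.51 and 15.6 FPKM in H3R17H-labelled libraries and 13.04, 24.9 and 24.3 FPKM in Carm1-labelled ones. Only the last group lay wholly above WT, and the differences of 0.81 and 1.01 (SE 0.38 each) did not pass (limma, adjusted p = 0.368 and 0.376). Among 8 tested regulators, Sesn2, a p53- and ATF4-induced inhibitor of mTORC1, was at 10.2, 14.0 and 7.24 FPKM in WT libraries, against 22.6, 27.6 and 20.3 FPKM in Carm1-labelled libraries, a difference of 1.13 (SE 0.35, limma, adjusted p = 0.3). Nupr1, a stress-induced chromatin protein, was at 53.3 and 16.3 FPKM in replicates 2 and 3 labelled Carm1-/-, at 0.05 FPKM in replicate 1 and at most 8.99 FPKM in the other groups. Without that replicate it passed in Carm1-/- vs WT, at 3.61 (limma, adjusted p = 0.048). Of 12 amino acid and one-carbon enzymes 6 had higher and 6 lower values in H3R17H-labelled libraries, and 4 and 8 in Carm1-labelled ones. Psat1, of serine synthesis, was at 129, 82.0 and 112 FPKM in WT, 249.4, 300 and 203 FPKM in H3R17H-labelled libraries and 48.8, 226 and 352 FPKM in Carm1-labelled ones. All H3R17H-labelled libraries lay above WT, a difference that passed when only the groups compared were fitted (1.22, limma, adjusted p = 0.0393), as did 2.03% of all tested genes. In Carm1-labelled libraries it passed without replicate 1 (1.4, limma, adjusted p = 0.0259). Pycr1 and Aldh18a1, of proline synthesis, had lower values in H3R17H-labelled libraries, by -1.17 (SE 0.4) and -1.75 (SE 0.56), and did not pass (limma, adjusted p = 0.268 and 0.248). In Carm1-labelled libraries Pycr1 was at most 0.3 FPKM, against 1.18 to 2.98 FPKM in WT (difference -1.44, SE 0.4, limma, adjusted p = 0.266). Of 13 aminoacyl-tRNA synthetase and tRNA export genes 10 had lower values in each edited group, with medians of -0.22 and -0.18. These include ATF4 targets, and 5 of the 8 with a window (Aars, Gars, Iars, Tars and Yars) held the ATF4 element.

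Genes of the upstream sensors gave list medians near 0. Eif2ak3, which encodes PERK, was at 2.36, 1.89 and 3.05 FPKM in WT, 1.29, 1.4 and 1.86 FPKM in H3R17H-labelled libraries and 4.69, 2.38 and 1.83 FPKM in Carm1-labelled ones. Eif2ak4, which encodes the amino acid sensor GCN2, averaged 2.25 ± 0.993 FPKM in WT and was at 0.14, 0.15 and 1.27 FPKM in replicates 1 to 3 labelled Carm1-/- (log2 difference -1.12, SE 0.49, limma, adjusted p = 0.425). Over the 15 tested sensor and eIF2 genes the median difference was -0.05 and 0.05 in the 2 groups. Tnfrsf10b, a death receptor gene that CHOP and p53 induce, was at 19.0, 11.6 and 12.8 FPKM in WT, and all 6 edited libraries were above these, at 19.8 to 36.2 FPKM (differences 0.78 and 0.72, limma, adjusted p = 0.302 and 0.405).

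The other stress arms gave a further comparison. Hspa1a, an inducible cytosolic chaperone with a near-identical copy whose reads may be shared, was listed at 0 in the 3 WT libraries and at 0.66 to 3.72 FPKM in all 6 edited libraries. These values are low, and it met the filter only through edited libraries. Hspb1, a small heat shock protein, was at 71.4, 152 and 140 FPKM in WT libraries, against 752, 453 and 298 FPKM in Carm1-labelled libraries (difference 2.01, SE 0.7, limma, adjusted p = 0.343). In H3R17H-labelled libraries it was at 51.7, 234 and 540 FPKM, with replicates 2 and 3 also above WT (difference 0.7, SE 0.7, limma, adjusted p = 0.671). Medians over the cytosolic (9 genes) and mitochondrial (6 genes) lists were 0.24 and 0.1 in H3R17H vs WT and 0.1 and 0 in Carm1-/- vs WT.

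**Figure D4:**
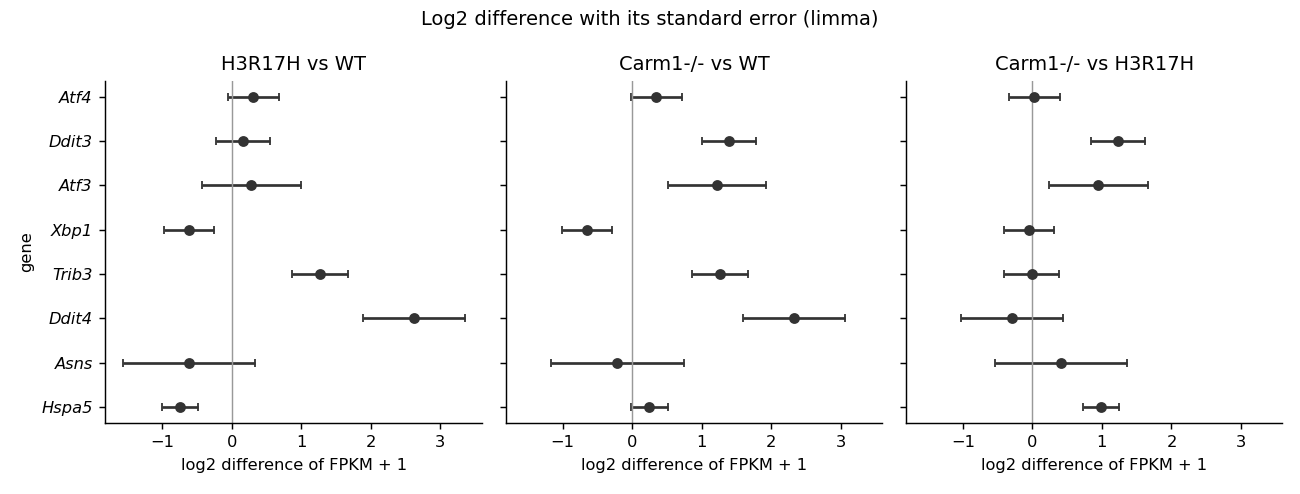
Log2 difference of FPKM + 1 (point) and its standard error (bar, limma) for the 8 tested genes in each of the 3 comparisons of the groups as labelled. Ddit4 has the highest value in both comparisons with WT, 2.62 and 2.33, and Ddit3 and Hspa5 are the genes at 1.23 and 0.99 in the direct comparison of the edited groups.

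Read over the 8 tested genes, limma called 0 in each comparison, as it called 0 of all 11850 genes (0%). At an unadjusted p under 0.05 there were 3 in H3R17H vs WT (Ddit4, Trib3 and, lower, Hspa5), where 6.41% of all tested genes were higher and 7.75% lower. The 3 in Carm1-/- vs WT were Ddit3, Ddit4 and Trib3 (5.25% and 6.19% of all genes), and the 2 in the direct comparison were Ddit3 and Hspa5 (4.09% and 4.12%). Libraries did not overlap in 2 higher genes and 1 lower gene for H3R17H vs WT (13.3% and 15.6% of all genes). In Carm1-/- vs WT this held for 2 higher genes, Ddit3 and Trib3 (6.91% of all genes), and 0 lower genes (9.71%), and in the direct comparison for 2 higher genes (5.13%). A permutation of 3 against 3 libraries cannot give a two-sided exact p below 0.1.

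Both comparisons with WT share its libraries. The group median of the 8 log2 differences was 0.22 for H3R17H vs WT and 0.79 for Carm1-/- vs WT, against -0.032 and -0.042 over all genes. Atf3, which entered through edited libraries only, is among the 8. With a mean of at least 5 FPKM required, which drops Atf3 and Trib3, the medians were -0.22 and 0.3, and without replicate 2 labelled H3R17H the first was -0.05.

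The genes closest in profile were sought among the tested genes, leaving out predicted gene models and symbols turned into dates. The measure was the root mean square difference of WT-centred log2 values over the 9 libraries. For Hspa5 they were Baz2b (0.16) and Hsp90b1 (0.19), with Hspa5 itself at 0.53 from the WT mean. For Ddit3 they were Mlxipl and Rnf208 (0.36 each, against 0.91), Rnf208 being at 6.67 to 9.94 FPKM in WT and 10.96, 31.8 and 27.3 FPKM in Carm1-labelled libraries. For Ddit4 they were Sap30 (0.44) and Alppl2 (0.56, against 2.22), and for Trib3 Pgs1 (0.32) and Sapcd2 (0.33, against 1.1).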

How the data were processed

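The authors deposited FPKM values of the 9 libraries in 1 table, as its headers show. Bowtie 0.12.2 is listed in the submitters' processing notes, as are mm10 and GRCm38. Which program quantified the genes, on which annotation and with which strand setting is not given in the sources used here. Low values were not whole multiples of a shared step, so the depth is unknown and no counting interval is given. Libraries were grouped by title and matched to columns by description.

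Values were tested as log2(FPKM + 1), which understates changes of low genes. The 11850 genes that reached 1 FPKM in 3 or more libraries entered 1 limma fit of all 9 libraries with an intensity trend, with Benjamini-Hochberg adjustment over all of them and a threshold of 0.05. The fit was tested on simulated data. The genes, lists and rules were chosen with earlier results of these data known; the rule for named genes took the 9 genes, Carm1, the list genes with the smallest p in each role and the nearest profiles, not all of which are printed. Genes outside that rule, or named again after their values were seen, are Zp3, Gdf9, the single lineage markers, Mars, Calr, Canx, Creld2, Pdia6, Dnajb9, Manf, Nupr1, Psat1, Herpud1, Derl3, Syvn1 and Eif2ak3. Alternatives are those of the closing section. Positions are from GENCODE M21 and promoters from RefSeq on GRCm38.p6. R 4.3.3, limma 3.58.1, Python 3.11.15, pandas 2.3.3, numpy 2.4.6 and matplotlib 3.10.9 were used.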

Additional observations from a re-analysis of the deposited data

How the results depend on the processing

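Settings were varied singly. The pseudocount was set to 0.1 or 5, the filter was dropped or replaced by a mean of at least 5 FPKM, and values were rescaled by median of ratios or quantiles. The fit was run without the trend, with array weights, on only the groups compared, with a replicate block, with a sex term and without each library. None of the 8 genes passed in H3R17H vs WT or in Carm1-/- vs H3R17H under any of these, and in Carm1-/- vs WT 0 passed except without replicate 1 labelled Carm1-/-, where 2 did (Ddit3 and Ddit4). Ddit4, Trib3 and Xbp1 kept their direction against WT in both comparisons under each alternative that gave them a value, as did Hspa5 in H3R17H vs WT. In Carm1-/- vs WT Hspa5 came down to 0.01 with a sex term and to 0.03 without replicate 3 labelled Carm1-/-. Over all genes, H3R17H vs WT had 1 call with a pseudocount of 5, 192 with array weights, 240 on only the groups compared, and 0 to 125 with a library left out; Carm1-/- vs WT had 1 with a pseudocount of 0.1, 1 with array weights and 0 to 549 with a library left out. The direct comparison had 1 with either pseudocount, 2 with median-of-ratios scaling or quantile normalization, 3 with no trend and 0 to 10 with a library left out. The counts of 125, 549 and 10 are those without replicate 1 labelled Carm1-/-, as are the 5 calls given next. In the wider list 1 gene passed with array weights and 2 on only the groups compared in H3R17H vs WT, and 0 to 5 with a library left out in Carm1-/- vs WT. On only the groups compared 2.03% of all tested genes passed in H3R17H vs WT. Without replicate 1 labelled Carm1-/- 4.63% did in Carm1-/- vs WT. The median of the 8 genes in H3R17H vs WT was -0.22 with a mean of at least 5 FPKM, a setting that drops low genes among them, -0.53 with a sex term, and -0.05 to 0.4 with a library left out. In Carm1-/- vs WT it was 0.3 with a mean of at least 5 FPKM, 0.42 with a pseudocount of 5, 0.12 with a sex term and 0.35 to 1.06 with a library left out, and in the direct comparison -0.14 to 0.79 with a library left out.

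The direction turned for genes with small or scattered differences. With a sex term, H3R17H vs WT was -0.03 for Atf4, -0.35 for Ddit3 and -0.72 for Atf3. Leaving out a library gave -0.25 to 0.54 for Atf3 and -1.55 to 0.33 for Asns in that comparison. In Carm1-/- vs WT Asns was 0.1 with array weights and -1.14 to 0.47 with a library left out. In the direct comparison Atf4 was 0 with quantile normalization, Xbp1 0.09 and Trib3 0.31 with array weights, and leaving out a library gave -0.27 to 0.49 for Atf4, -0.34 to 0.23 for Xbp1, -0.31 to 0.21 for Trib3, -0.96 to 0.48 for Ddit4 and -0.54 to 1.09 for Asns. The cause was not tested. The labels state no pairing by replicate number. Deviations from the group mean correlated at -0.05 to 0.18 between same-numbered libraries, and 4 of 9 correlated best with their own number. With 3 libraries a group, these values cannot decide whether same-numbered libraries shared a batch. With the replicate block 0 genes passed in each comparison, as without it.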
